A study of Mus musculus with 6 samples.

Results

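The 98 genes described here encode the subunits of oxidative phosphorylation, 85 in the nuclear genome and 13 in the mitochondrial genome. They are all protein-coding rows of the deposited scaled table whose symbols begin with Nduf followed by a, b, c, s or v and a digit, with Uqcr, with Cox and a digit between 4 and 8, with Atp5 or with mt-, together with the symbols Sdha, Sdhb, Sdhc and Sdhd. The table holds 17409 protein-coding rows among 28533 rows. The rule rests on names and holds no measured value, but the members were chosen with earlier results of these data known. By name, 38 nuclear and 7 mitochondrial members belong to complex I, 4 nuclear members to complex II, 8 nuclear and 1 mitochondrial member to complex III, 18 nuclear and 3 mitochondrial members to complex IV, and 17 nuclear and 2 mitochondrial members to complex V.

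Oxidative phosphorylation passes electrons from NADH and succinate through complexes I to IV to oxygen, and complex V, the ATP synthase, uses the resulting proton gradient to make ATP. Most subunits are encoded in the nucleus and imported, while the mitochondrial genome supplies hydrophobic core subunits of complexes I, III, IV and V, so that assembly needs products of both genomes. Complex II is built from nuclear genes alone. Erythroid precursors need mitochondria for heme synthesis and osteoclasts, the cells that resorb bone, are rich in mitochondria.

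Of the 6 libraries, 3 were labelled phlebotomy (removal of blood) and 3 control, all from mice of the strain C57BL/6, 12 weeks old and labelled WT, and total RNA was taken from fractions of femur bone in which osteocytes, the resident cells of the mineral, had been enriched. The labels do not give the volume of blood, the time after it or the sex. They also do not say whether a library is 1 animal, so a p-value here reflects library-to-library spread, which may be technical. Libraries are named by the number in the deposited columns, and columns starting with N were taken as control by elimination, which limits every comparison. Libraries held 14853290 to 15866385 gene counts after phlebotomy and 11219243 to 19015588 in controls. Levels are CPM, counts scaled to library size, here after TMM scaling, which sets the libraries to a common level of most genes.

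The osteocyte marker Dmp1 was abundant, at 11445, 22234 and 21296 CPM in phlebotomy 1, 2 and 4, against 43051, 41267 and 18771 CPM in control 1, 2 and 4. Not every osteocyte marker was: Fgf23 lay between 6.41 CPM (control 1) and 9.27 CPM (control 4). The fractions also held marrow transcripts, since the globin gene Hbb-bs lay between 10269 and 17160 CPM after phlebotomy and between 7513 and 16147 CPM in controls. In such bulk samples, fewer cells of a type and less RNA per cell cannot be told apart. Phlebotomy 1 and control 1 stood at opposite ends of the first principal component, which held 44.1% of the variance, and phlebotomy 1 was the library with the strongest relation between transcript length and level. Without phlebotomy 1 the log2 fold change of 58 of 83 nuclear members was over 1.5 times larger or smaller, against 10 of 83 without control 1, and for the nuclear members described singly the value without phlebotomy 1 is given where it moved that far.

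Across the nuclear genome's share of the system, the median fold change lay above 0 by a small and similar amount in every complex. Summed levels overlapped between the groups in complexes I, II and III, and no single gene passed the threshold. Of 83 nuclear members tested, 81 had a log2 fold change above 0, with a median of 0.38, whereas 49.8% of all genes tested lay above 0 and their median was -0.003. The mitochondrially encoded members had a median of 0.14, with 12 of 13 above 0. The quasi-likelihood test of edgeR, with Benjamini-Hochberg adjustment over 18838 genes and a threshold of 0.05, called 0 members, as against 0.0159% of all genes called higher and 0.0% called lower. At an unadjusted p under 0.05 it marked 33 nuclear members as higher and 0 as lower, and 0 mitochondrial members, where the background was 7.01% of genes higher and 9.42% lower. DESeq2 called 1 member and marked 35 at an unadjusted p under 0.05 (0.672% and 5.99% of genes higher). The counts were 0 and 26 with limma-voom (0.0% and 6.31%) and 0 and 9 with limma-trend on the deposited values (0.0159% and 4.5%).

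In 31 nuclear members every phlebotomy library lay above every control library, which was so for 10.1% of all genes tested. On the deposited values, whose scaling by the authors differs slightly, this held for 19 nuclear members and 7.22% of genes. No nuclear or mitochondrial member lay lower in all 3 phlebotomy libraries than in all 3 controls under either scaling, a pattern seen in 11.2% of genes (14.5% on the deposited values). The 31 were spread over the complexes, with 18 in complex I, 1 in complex II, 2 in complex III, 4 in complex IV and 6 in complex V. Of the 19 on the deposited values, 7 were in complex I, 1 in complex II, 2 in complex III, 3 in complex IV and 6 in complex V. Cox7b2 and Cox8b did not pass the filter on low counts and were not tested.

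**Figure D1:**
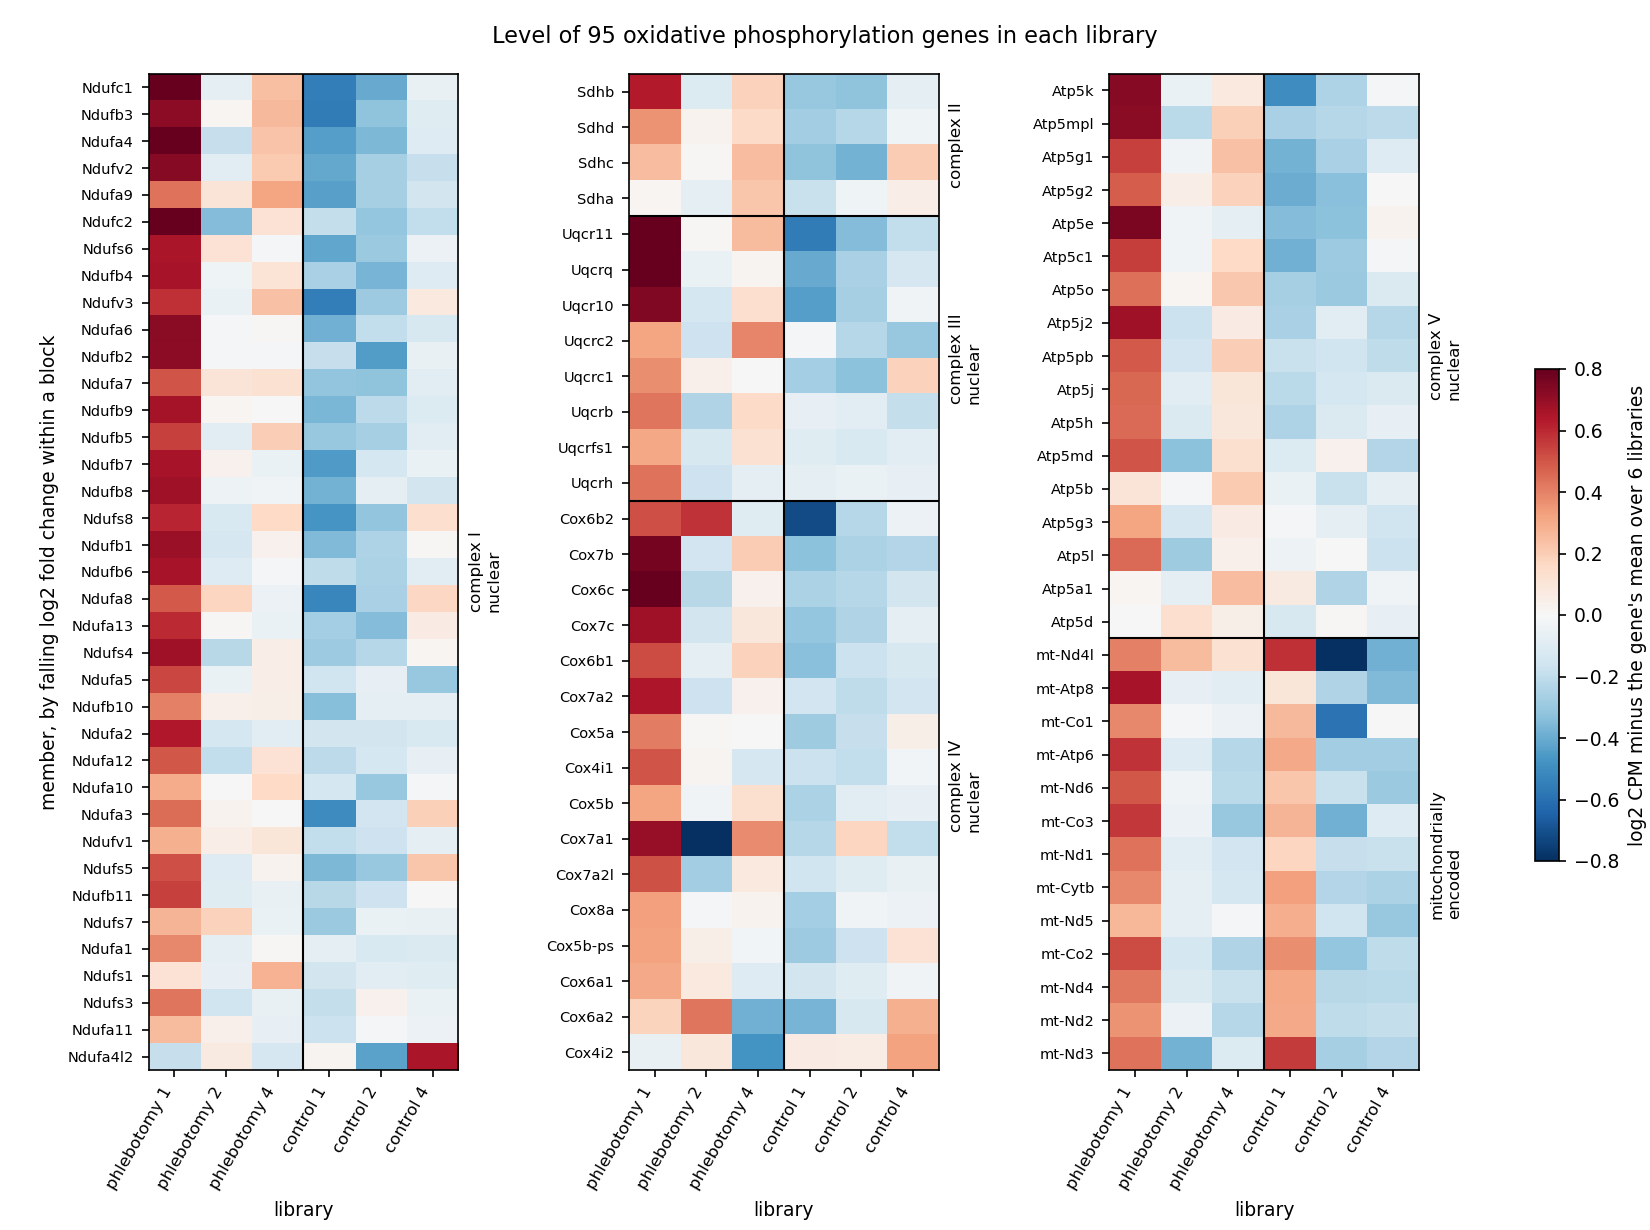
Each row is a tested member, with 1 nuclear member of complex I not shown, and each column a library, and the colour is the log2 CPM minus the gene's mean over the 6 libraries, with colours capped at 0.8 on either side. Phlebotomy 1 is the darkest red column and is the highest library for 72 of 83 nuclear members, and control 1 is low for nuclear but high for mitochondrially encoded members.

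The libraries did not contribute equally. Phlebotomy 1 was the highest of the 6 libraries for 72 of 83 nuclear members, and control 1 was the lowest for 52. Against the background of all genes tested, phlebotomy 1 lay above all 3 controls for 77 of 83 nuclear members (35.5% of all genes), phlebotomy 2 for 38 (21.3%) and phlebotomy 4 for 65 (30.1%). For the 13 mitochondrial members these counts were 10 in phlebotomy 1, 0 in phlebotomy 2 and 0 in phlebotomy 4.

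Leaving out phlebotomy 1 lowered the fold changes in both genomes. The median of the nuclear members was 0.20 without it, 77 of 83 stayed above 0 (50.3% of all genes), and edgeR marked 6 at an unadjusted p under 0.05 (3.76% of genes higher) and called 0. The median of the mitochondrial members was then -0.05, with 4 of 13 above 0. Without phlebotomy 2, by contrast, edgeR called 6 nuclear members as higher and 0 as lower, against 1.75% and 2.99% of 20300 genes. These were Ndufa4, Ndufb3, Ndufc1, Ndufv2, Uqcr11 and Cox7b, with adjusted p between 0.036 and 0.048. Leaving out control 1 or control 2 lowered the count at an unadjusted p under 0.05 to 9 nuclear members (4.91% of genes higher) or 7 (4.79%). Without control 4 it was 36 (6.60%).

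**Figure D2:**
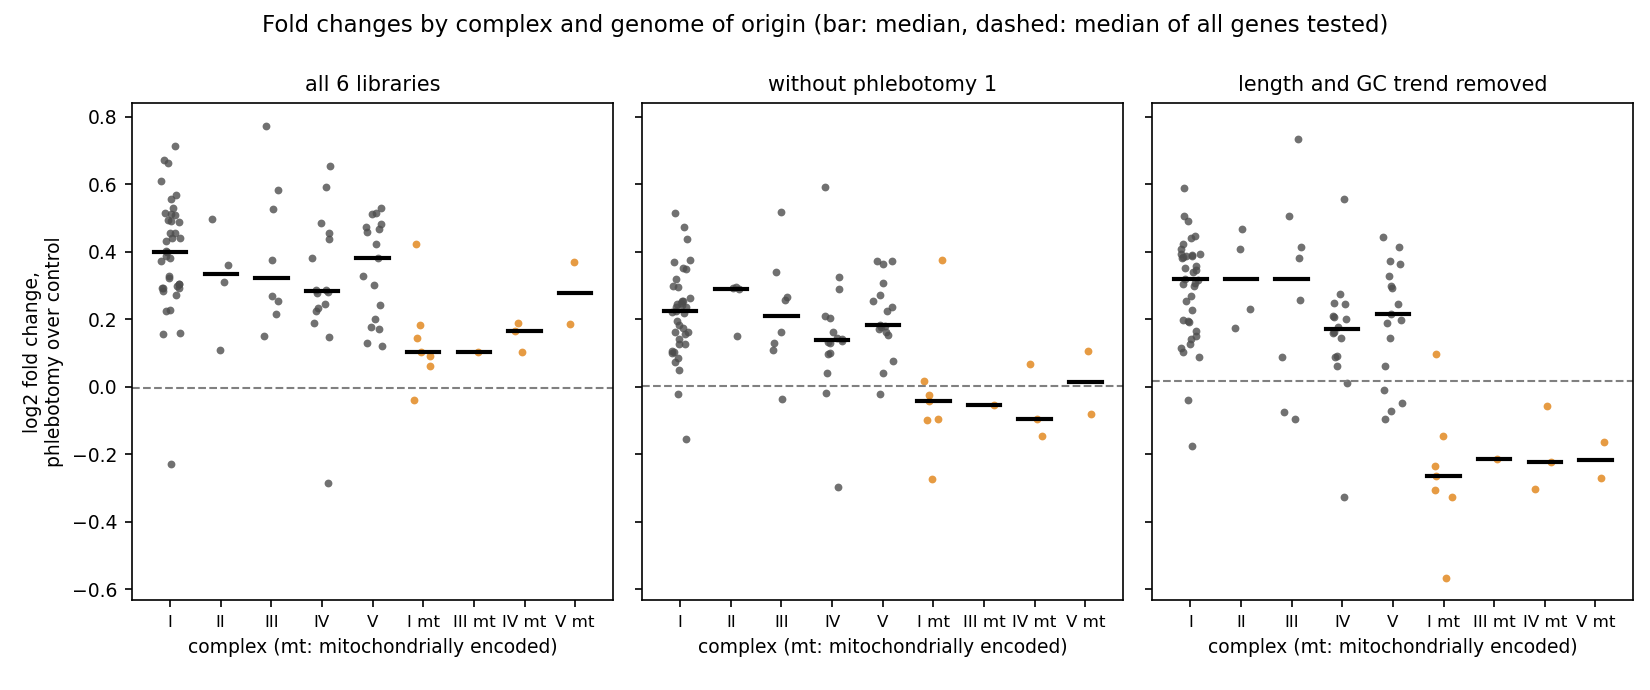
Points are log2 fold changes (phlebotomy over control) of single members by complex, with nuclear members in grey and mitochondrially encoded members in orange, fitted on all 6 libraries, without phlebotomy 1, and with the length and GC trend of each library removed. Bars are medians of each group and the dashed line is the median of all genes tested: the nuclear medians stay above the line in all 3 panels, and the mitochondrial median is 0.14, -0.05 and -0.23.

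Summed over members, nuclear-encoded subunits took 1.19%, 0.808% and 0.953% of gene counts in phlebotomy 1, 2 and 4, against 0.652%, 0.703% and 0.776% in control 1, 2 and 4. The groups did not overlap on this scale, though phlebotomy 2 lay close to control 4. As sums of the deposited scaled values, phlebotomy 2 (0.808%) lay just below control 4 (0.815%), so the groups overlapped, and the mean difference was 0.139 percentage points in place of 0.273. The means were 0.983% ± 0.193 after phlebotomy and 0.710% ± 0.062 in controls (SD, n = 3 each). The 13 mitochondrial mRNAs took 0.943%, 0.661% and 0.661% of counts in phlebotomy 1, 2 and 4, against 0.743%, 0.530% and 0.592% in control 1, 2 and 4. Here the groups overlapped, because control 1 lay above phlebotomy 2 and 4.

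The ratio of mitochondrial to nuclear member counts was 0.793, 0.818 and 0.694 in phlebotomy 1, 2 and 4, against 1.14, 0.754 and 0.763 in control 1, 2 and 4. Control 1 was the outlying library in this ratio, with the lowest nuclear and the second highest mitochondrial share. The other 5 libraries lay between 0.694 and 0.818 with the groups interleaved. The mean ratio was 0.768 ± 0.066 after phlebotomy and 0.885 ± 0.220 in controls (SD, n = 3 each), a difference smaller than the spread among controls.

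**Figure D3:**
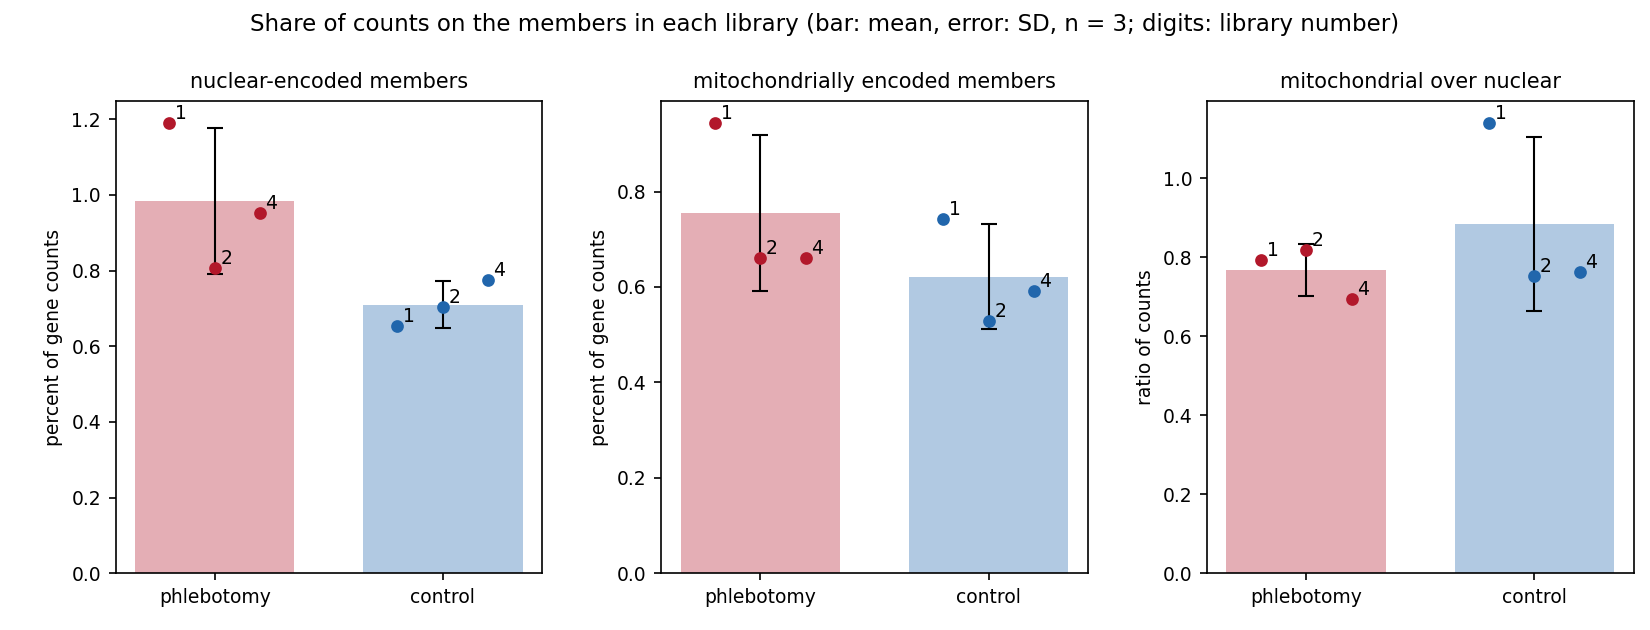
The panels show, for each library, the percent of gene counts on nuclear-encoded members, the percent on mitochondrially encoded members, and the ratio of mitochondrial to nuclear member counts, with bars for the mean and error bars for the SD of 3 libraries. Nuclear shares of raw gene counts do not overlap between the groups (on the deposited scaled values phlebotomy 2 lies below control 4), while control 1 carries a mitochondrial share of 0.743% and the highest ratio, 1.14.

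Promoters of nuclear members are known to carry sites for NRF1, for the ETS factor GABP (also called NRF2) and for YY1, factors that tie the nuclear genes of the system to each other. RefSeq promoter windows (GRCm38.p6, 250 bases before to 50 bases after the start) were matched by symbol for 69 of the 85 nuclear members. The NRF1 motif, a pair of GCGC half-sites with an A and then any base between them, searched on both strands, stood in 17 of 69 members (24.6%), against 5.19% of all 27025 genes with a window. The ETS motif CCGGAAG stood in 17 (24.6%), against 9.93% of all, and the YY1 motif AAGATGGCG in 7 (10.1%), against 1.64%. At least 1 of these motifs was present in 35 members (50.7%), against 15.1% of all genes.

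The general promoter motifs showed little of this contrast, with CCAAT in 43.5% of members and 41.1% of all genes, and TATAAA in 11.6% and 15.7%. The median log2 fold change was 0.37 for 17 members with the NRF1 motif and 0.39 for 50 tested members without it, 0.36 for 17 with the ETS motif and 0.39 for 50 without, and 0.42 for 7 with the YY1 motif and 0.39 for 60 without. It was 0.44 for 29 members with CCAAT and 0.38 for 38 without, and 0.29 for 6 with TATAAA and 0.40 for 61 without. These differences were not tested. A match is a description of letters in a window, and other forms of each site were not searched. The windows of the complex III gene Uqcr11 and the complex I gene Ndufa9, the members with the smallest p, and of the complex III core gene Uqcrc1 are shown as examples of the ETS, YY1 and NRF1 motifs, in capitals, on the strand of each gene.
Uqcr11, chr10:80406772-80407071, minus strand: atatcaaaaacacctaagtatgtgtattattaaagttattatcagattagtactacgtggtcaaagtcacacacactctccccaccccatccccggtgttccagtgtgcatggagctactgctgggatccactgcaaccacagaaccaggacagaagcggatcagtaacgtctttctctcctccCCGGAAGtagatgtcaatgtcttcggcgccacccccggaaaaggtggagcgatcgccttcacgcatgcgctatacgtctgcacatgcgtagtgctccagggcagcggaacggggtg
Ndufa9, chr6:126849095-126849394, minus strand: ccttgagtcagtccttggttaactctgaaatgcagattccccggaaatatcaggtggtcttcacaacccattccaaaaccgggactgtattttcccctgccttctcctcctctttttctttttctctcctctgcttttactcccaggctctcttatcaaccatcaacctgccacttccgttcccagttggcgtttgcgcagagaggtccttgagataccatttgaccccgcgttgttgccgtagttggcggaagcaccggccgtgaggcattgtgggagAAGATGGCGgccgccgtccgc
Uqcrc1, chr9:108936398-108936697, plus strand: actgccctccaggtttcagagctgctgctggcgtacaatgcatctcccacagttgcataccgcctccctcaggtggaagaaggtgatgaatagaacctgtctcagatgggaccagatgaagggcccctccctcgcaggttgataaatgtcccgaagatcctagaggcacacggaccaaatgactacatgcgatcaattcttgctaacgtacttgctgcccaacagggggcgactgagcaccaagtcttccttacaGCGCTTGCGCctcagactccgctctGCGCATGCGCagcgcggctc

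Complex I, the NADH dehydrogenase, had a nuclear median of 0.40, the highest of the 5 complexes with all 6 libraries, and 37 of its 38 nuclear members lay above 0. Without phlebotomy 1 the median was 0.22, below the 0.29 of complex II, and with the length and GC trend removed it was 0.32, as were those of complexes II and III. Unadjusted p was under 0.05 in 16 of them. Summed CPM of these 38 genes was 3300, 2127 and 2324 in phlebotomy 1, 2 and 4, against 1787, 1899 and 2131 in control 1, 2 and 4. Phlebotomy 2 fell just under control 4, so the sums overlapped at that single point.

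Ndufa9 encodes an accessory subunit at the joint between the peripheral and membrane arms (chromosome 6, 126821721 to 126849136, GRCm38). It had 72.1, 57.5 and 66.6 CPM in phlebotomy 1, 2 and 4, against 39.5, 44.4 and 48.2 CPM in control 1, 2 and 4. The groups did not overlap, and its difference was nearly as large without phlebotomy 1. The log2 fold change was 0.57 ± 0.17 (SE, edgeR adjusted p = 0.177) and 0.52 without phlebotomy 1. Ndufb3, a small subunit of the membrane arm, had 65.6, 40.4 and 47.8 CPM in phlebotomy 1, 2 and 4, against 27.1, 31.97 and 37.4 CPM in control 1, 2 and 4, a log2 fold change of 0.67 ± 0.21 (SE, edgeR adjusted p = 0.183). Its groups were also separate, with phlebotomy 1 well above the rest.

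Ndufa4 was named as a complex I subunit and is now regarded as a subunit of complex IV, and here it is counted with complex I by name. It had the highest level per kilobase among the nuclear genes named for complex I. Its level was 280, 135 and 179 CPM in phlebotomy 1, 2 and 4, against 113, 120 and 143 CPM in control 1, 2 and 4. Phlebotomy 2 lay below control 4, so the groups overlapped. The log2 fold change was 0.66 ± 0.23 (SE, edgeR adjusted p = 0.212), 0.35 without phlebotomy 1 and 0.84 without phlebotomy 2, where its adjusted p was 0.044.

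The catalytic subunits, named here for their roles and not by the size of their values, lay within the range of the accessory ones. Ndufv1, which binds NADH, and Ndufs1, an iron-sulfur protein, had log2 fold changes of 0.29 and 0.22, and Ndufv2, their iron-sulfur partner, had 0.61 (0.38 without phlebotomy 1). Ndufs3, Ndufs7 and Ndufs8, core subunits of the peripheral arm, lay between 0.16 and 0.44, and between -0.022 and 0.24 without phlebotomy 1. Accessory members ranged more widely, from -0.23 for Ndufa4l2 to 0.71 for Ndufc1, which had 0.44 without phlebotomy 1. With all 6 libraries, Ndufv1, Ndufs1, Ndufs3 and Ndufs7 lay below the nuclear median of complex I, 0.40, and Ndufv2 and Ndufs8 above it. Whether catalytic and accessory members differ was not tested.

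Complex II, succinate dehydrogenase, also takes part in the citric acid cycle. All 4 of its genes lay above 0, with a median of 0.34, and 2 had an unadjusted p under 0.05. Summed CPM was 557, 442 and 520 in phlebotomy 1, 2 and 4, against 383, 400 and 459 in control 1, 2 and 4. Phlebotomy 2 lay below control 4 in this sum. Sdhd, a membrane anchor with the highest level per kilobase in the complex, had 188, 150 and 164 CPM in phlebotomy 1, 2 and 4, against 121, 126 and 144 CPM in control 1, 2 and 4. Its groups did not overlap, and the log2 fold change was 0.36 ± 0.16 (SE, edgeR adjusted p = 0.293). Sdhb, the iron-sulfur subunit, had 145, 86.6 and 106 CPM in phlebotomy 1, 2 and 4, against 75.8, 75.0 and 88.6 CPM in control 1, 2 and 4, with phlebotomy 2 below control 4. Its log2 fold change was 0.50 ± 0.19 (SE, edgeR adjusted p = 0.240) and 0.30 without phlebotomy 1. Sdha, the flavoprotein that oxidises succinate, differed least, at 0.11.

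Complex III, the cytochrome bc1 complex, held the member with the smallest p. Uqcr11, a small subunit at its periphery (chromosome 10, 80402997 to 80406830, GRCm38), had 88.6, 49.7 and 59.0 CPM in phlebotomy 1, 2 and 4, against 33.5, 38.8 and 43.0 CPM in control 1, 2 and 4. Every phlebotomy library lay above every control, and phlebotomy 1 was by far the highest. The log2 fold change was 0.77 ± 0.21 (SE, edgeR adjusted p = 0.162). DESeq2, with an adjusted p of 0.037, and edgeR without a filter on low counts, with 0.044, both called it, as the 1 member called by either, where edgeR without a filter called 0.357% of genes higher. Its log2 fold change was 0.52 without phlebotomy 1 and 0.73 with the length and GC trend removed.

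Uqcrq, a small subunit bound to cytochrome b and the nuclear gene of complex III with the highest level per kilobase, had 204, 111 and 117 CPM in phlebotomy 1, 2 and 4, against 87.1, 96.1 and 105 CPM in control 1, 2 and 4. The groups did not overlap, and the gap rested on phlebotomy 1: the log2 fold change was 0.58 ± 0.22 (SE, edgeR adjusted p = 0.228) and 0.27 without that library. The 8 nuclear genes had a median of 0.32 (0.21 without phlebotomy 1) and 3 had an unadjusted p under 0.05. Summed CPM of the 8 was 1174, 761 and 876 in phlebotomy 1, 2 and 4, against 708, 713 and 777 in control 1, 2 and 4. Phlebotomy 2 lay below control 4 in this sum. The core proteins Uqcrc1 and Uqcrc2 had log2 fold changes of 0.27 and 0.38, and Uqcrfs1, the Rieske iron-sulfur protein, had 0.22. Without phlebotomy 1 these were 0.16 for Uqcrc1, 0.34 for Uqcrc2 and 0.13 for Uqcrfs1.

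Complex IV, cytochrome c oxidase, had the lowest nuclear median, 0.28 (0.14 without phlebotomy 1, again the lowest), over 16 tested genes, of which 15 lay above 0 and 5 had an unadjusted p under 0.05. Its summed level, over all 18 nuclear genes, was 2308, 1548 and 1627 CPM in phlebotomy 1, 2 and 4, against 1371, 1441 and 1526 CPM in control 1, 2 and 4. Those sums did not overlap, but on the deposited values phlebotomy 4 (1517 CPM) lay below control 4 (1574 CPM). Cox7b, a small subunit needed for assembly, had 194, 102 and 131 CPM in phlebotomy 1, 2 and 4, against 90.7, 95.8 and 96.8 CPM in control 1, 2 and 4. Its controls lay close together and below every phlebotomy library, with a log2 fold change of 0.59 ± 0.21 (SE, edgeR adjusted p = 0.213) and 0.33 without phlebotomy 1.

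Cytochrome c oxidase is also the complex with the most tissue-specific isoforms, and levels were therefore set against each other per kilobase of transcript. Cox6a1, the broadly expressed form of COX6A and the nuclear complex IV gene with the highest level per kilobase, had 284, 243 and 214 CPM in phlebotomy 1, 2 and 4, against 208, 216 and 226 CPM in control 1, 2 and 4. The groups overlapped, with a log2 fold change of 0.19 ± 0.17 (SE, edgeR adjusted p = 0.585), or 0.10 once phlebotomy 1 was left out. The heart and muscle forms were near absent: per kilobase, Cox6a2 was 0.836% to 1.29% of the pair with Cox6a1 after phlebotomy and 0.869% to 1.26% in controls. Cox7a1 was 0.597% to 1.19% of its pair with Cox7a2 after phlebotomy and 0.891% to 1.21% in controls. Cox8b was at most 0.085% of its pair with Cox8a after phlebotomy and at most 0.295% in controls, on 1 to 6 counts a library.

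Cox4i2 and Ndufa4l2 were the 2 nuclear members with a negative fold change, and each is an alternative form of another member, known from work on hypoxia as responsive to low oxygen. Cox4i2 had 17.01, 18.8 and 12.7 CPM in phlebotomy 1, 2 and 4, against 18.5, 18.4 and 22.1 CPM in control 1, 2 and 4, a log2 fold change of -0.28 ± 0.20 (SE, edgeR adjusted p = 0.496). Its common partner Cox4i1 had 385, 276 and 247 CPM in phlebotomy 1, 2 and 4, against 241, 237 and 267 CPM in control 1, 2 and 4, a log2 fold change of 0.29 ± 0.19 (SE, edgeR adjusted p = 0.461) and 0.097 without phlebotomy 1. Both genes overlapped between groups when taken singly.

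As a share of the pair per kilobase, Cox4i2 was 4.33%, 6.54% and 5.0% in phlebotomy 1, 2 and 4, against 7.32%, 7.37% and 7.82% in control 1, 2 and 4. The controls lay close together and above every phlebotomy library. Ndufa4l2 was 0.953%, 2.33% and 1.53% of its pair with Ndufa4 in phlebotomy 1, 2 and 4, against 2.67%, 1.87% and 3.27% in control 1, 2 and 4, with phlebotomy 2 above control 2. The level of Ndufa4l2 itself was 5.57, 6.65 and 5.75 CPM in phlebotomy 1, 2 and 4, against 6.41, 4.70 and 9.95 CPM in control 1, 2 and 4, a log2 fold change of -0.23 ± 0.28 (SE, edgeR adjusted p = 0.708), so its direction depended on control 4: it was 0.09 without that library.

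The testis-linked form Cox6b2 differed in the other direction. It had 10.4, 10.9 and 6.83 CPM in phlebotomy 1, 2 and 4, against 4.44, 6.23 and 7.06 CPM in control 1, 2 and 4, a log2 fold change of 0.66 ± 0.26 (SE, edgeR adjusted p = 0.247), with phlebotomy 4 below control 4. Its common partner Cox6b1 had 241, 158 and 190 CPM in phlebotomy 1, 2 and 4, against 132, 149 and 153 CPM in control 1, 2 and 4, without overlap and with a log2 fold change of 0.44 ± 0.18 (SE, edgeR adjusted p = 0.257) and 0.29 without phlebotomy 1. Cox7b2, another testis form, stayed under 0.9 CPM in all 6 libraries. Cox7a2l, a relative of Cox7a2 that helps join complexes III and IV into supercomplexes, had a log2 fold change of 0.25, and Cox7a2 and Cox8a had 0.38 and 0.23. Without phlebotomy 1 these were 0.040 for Cox7a2l, 0.13 for Cox7a2 and 0.14 for Cox8a.

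**Figure D4:**
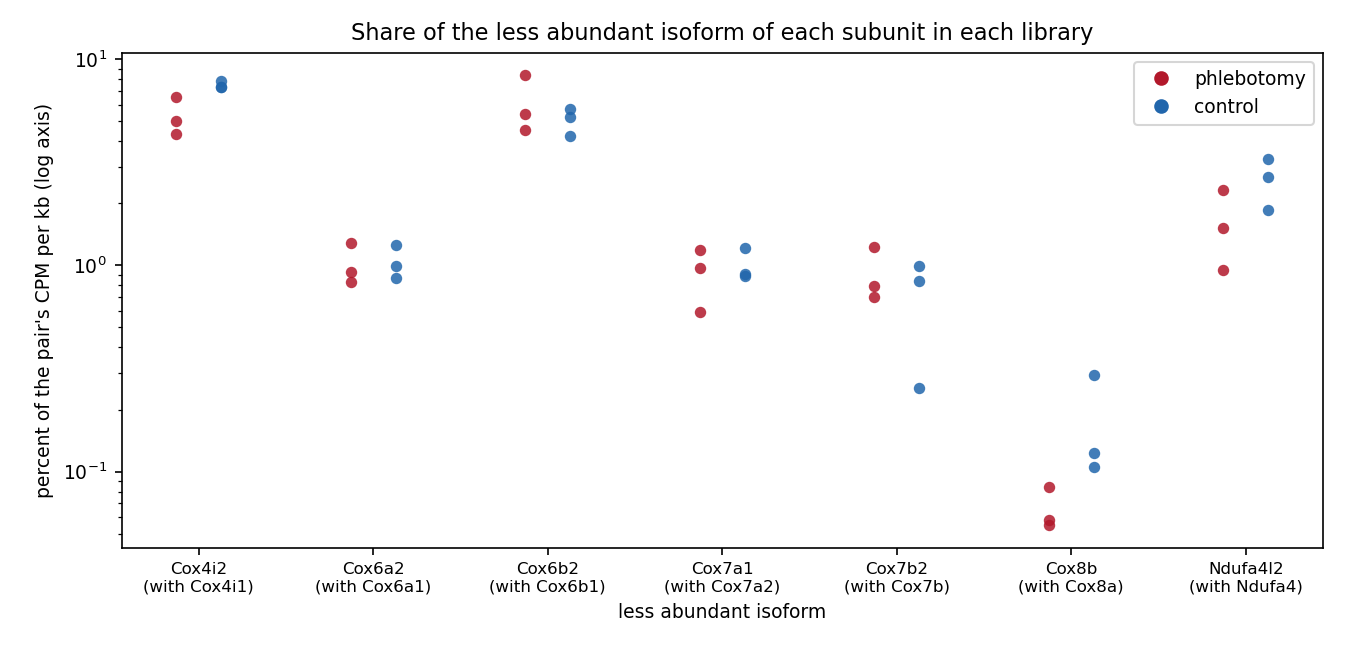
For each pair of isoforms the points give the less abundant form as a percent of the pair's CPM per kilobase in each library, on a log axis, with phlebotomy libraries left of controls. Cox4i2 lies between 4.33% and 6.54% after phlebotomy and between 7.32% and 7.82% in controls, and the muscle forms Cox6a2, Cox7a1 and Cox8b lie at or under 1.29% in every library.

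Complex V had a nuclear median of 0.38, with all 17 nuclear genes above 0 and 7 with an unadjusted p under 0.05. Its median was 0.18 without phlebotomy 1, with 16 of 17 above 0, and 0.21 with the length and GC trend removed, with 13 of 17 above 0, each the fourth of the 5 complexes. Summed CPM was 3962, 3053 and 3596 in phlebotomy 1, 2 and 4, against 2969, 2848 and 3011 CPM in control 1, 2 and 4, without overlap. Atp5b, the catalytic beta subunit and the most abundant nuclear member per kilobase, had 1088, 1003 and 1174 CPM in phlebotomy 1, 2 and 4, against 978, 896 and 966 CPM in control 1, 2 and 4. The groups were separate by a narrow margin and phlebotomy 4 was the highest, with a log2 fold change of 0.20 ± 0.18 (SE, edgeR adjusted p = 0.589).

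The ring of c subunits that turns in the membrane is encoded by 3 genes whose mature proteins are the same. Atp5g1 had 101, 67.8 and 81.4 CPM in phlebotomy 1, 2 and 4, against 53.3, 57.9 and 64.4 CPM in control 1, 2 and 4, a log2 fold change of 0.51 ± 0.18 (SE, edgeR adjusted p = 0.216). Atp5g2 had 23.7, 17.5 and 19.2 CPM in phlebotomy 1, 2 and 4, against 12.8, 13.4 and 16.9 CPM in control 1, 2 and 4, a log2 fold change of 0.48 ± 0.20 (SE, edgeR adjusted p = 0.263). Both separated the groups, whereas Atp5g3, the most abundant of the 3, did not.

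Atp5g3 had 286, 210 and 241 CPM in phlebotomy 1, 2 and 4, against 229, 218 and 206 CPM in control 1, 2 and 4, a log2 fold change of 0.18 ± 0.17 (SE, edgeR adjusted p = 0.617) and 0.078 without phlebotomy 1. Per kilobase, Atp5g1 made up 29.7%, 27.9% and 28.8% of its pair with Atp5g3 in phlebotomy 1, 2 and 4, against 21.8%, 24.2% and 27.2% in control 1, 2 and 4, without overlap and with control 4 close to phlebotomy 2. Atp5o, the stalk subunit that confers sensitivity to oligomycin, had 47.3, 35.2 and 40.4 CPM in phlebotomy 1, 2 and 4, against 29.0, 28.4 and 32.1 CPM in control 1, 2 and 4. It separated the groups too, with a log2 fold change of 0.46 ± 0.18 (SE, edgeR adjusted p = 0.240).

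The 13 mitochondrial mRNAs come from a compact genome transcribed as long precursors, with 12 of the genes on the plus strand of the deposited order and mt-Nd6 on the minus strand. Levels per kilobase, as means over the 6 libraries, ran from 1721 CPM per kilobase for mt-Cytb, 1056 for mt-Co1 and 1037 for mt-Nd1 down to 54.9 for mt-Nd3 and 10.4 for mt-Nd4l. The most abundant nuclear member, Atp5b, reached 531 CPM per kilobase on the same scale. Over the 13 genes the log2 fold changes lay between -0.04 and 0.42, and the smallest edgeR adjusted p was 0.427.

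mt-Cytb, the membrane core of complex III, had 2527, 1833 and 1758 CPM in phlebotomy 1, 2 and 4, against 2427, 1646 and 1622 CPM in control 1, 2 and 4. In both groups the library numbered 1 was high and the others lay close together, so the groups overlapped, with a log2 fold change of 0.10 ± 0.23 (SE, edgeR adjusted p = 0.849). mt-Co1, the catalytic subunit of complex IV, had 2084, 1588 and 1545 CPM in phlebotomy 1, 2 and 4, against 1908, 1061 and 1603 CPM in control 1, 2 and 4. Its control 2 stood lowest, and the log2 fold change of 0.19 ± 0.24 (SE, edgeR adjusted p = 0.710) was -0.04 without that library.

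mt-Atp8, a small membrane subunit of complex V, had 36.8, 22.2 and 21.9 CPM in phlebotomy 1, 2 and 4, against 24.9, 19.7 and 18.2 CPM in control 1, 2 and 4, with the smallest p of the 13 (log2 fold change 0.37 ± 0.23, SE, edgeR adjusted p = 0.427). Control 1 lay above phlebotomy 2 and 4. Without phlebotomy 1 the log2 fold changes were 0.11 for mt-Atp8, 0.066 for mt-Co1 and -0.053 for mt-Cytb. mt-Nd4l had the widest relative spread, with 3.83, 3.45 and 3.16 CPM in phlebotomy 1, 2 and 4, against 4.34, 1.48 and 2.22 CPM in control 1, 2 and 4. The complex I genes mt-Nd1, mt-Nd2, mt-Nd4, mt-Nd5 and mt-Nd6 had log2 fold changes between 0.06 and 0.18, mt-Nd3 had -0.04 (-0.57 with the length and GC trend removed, at an unadjusted p of 0.015), and mt-Co2, mt-Co3 and mt-Atp6 lay between 0.10 and 0.19.

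Of the other products of the mitochondrial genome, both ribosomal RNA genes and 3 of 22 tRNA genes had enough counts to test, and none was called. The ribosomal RNA gene mt-Rnr2 had 11749, 6827 and 5858 CPM in phlebotomy 1, 2 and 4, against 8710, 5781 and 6919 CPM in control 1, 2 and 4, with an edgeR adjusted p of 0.76. Phlebotomy 1 and control 1 were again the high libraries of their groups.

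Counts of mitochondrial genes depend on how reads shared with nuclear copies were assigned. A segment of mouse chromosome 1, between 24611535 and 24616197 on the minus strand (GRCm38), carries 7 annotated pseudogenes that copy a run of the mitochondrial genome. Over 4149 aligned bases they differ from their mitochondrial counterparts at 7, so that they are 99.8% identical and 5 of the 7 have 0 mismatches. Those copies have rows of their own in the deposited table, and the authors' rule for reads that match more than 1 place is not given in the sources used here.

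For some genes the copy held more counts than the gene itself. Gm28437, identical to mt-Co3 over 783 bases, had 810, 592 and 479 CPM in phlebotomy 1, 2 and 4, against 727, 468 and 548 CPM in control 1, 2 and 4. mt-Co3 itself, a core subunit of complex IV, had 423, 277 and 231 CPM in phlebotomy 1, 2 and 4, against 345, 219 and 266 CPM in control 1, 2 and 4. The copy therefore held 65.7% to 68.1% of their joint counts after phlebotomy and 67.4% to 68.1% in controls, a split that hardly varied between libraries.

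The share was highest for Gm10222, the copy of mt-Nd4l, with 84.2% to 85.8% after phlebotomy and 84.98% to 91.7% in controls. It was 71.4% to 72.6% after phlebotomy and 71.6% to 74.8% in controls for the copy of mt-Atp6, and 62.9% to 65.2% after phlebotomy and 62.7% to 63.6% in controls for that of mt-Co2. Levels of mt-Co2, mt-Atp6, mt-Co3, mt-Nd3 and mt-Nd4l are therefore uncertain as absolute values. So is that of mt-Atp8, which shares 43 bases with mt-Atp6 and its copy. Adding the copies to the mitochondrial members gave summed levels of 11012, 7931 and 7444 CPM in phlebotomy 1, 2 and 4, against 10141, 6663 and 7355 CPM in control 1, 2 and 4, and the groups still overlapped.

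The log2 fold changes of the 7 copies lay between -0.15 and 0.13. Their closeness to the mitochondrial sequence is shown by the first 60 bases of mt-Nd3 and of its copy Gm28438, which differ by the substitution T3C, counted from 1 at the first base of mt-Nd3, with the differing base in capitals. The end of mt-Atp8 is shown because its last 43 bases, in capitals, are also the first of mt-Atp6 and are identical in the copy Gm10925, so that reads there belong to 3 annotated features. Sequences are from GENCODE M21 (GRCm38), each on the strand of its gene.
mt-Nd3, chrM:9459-9518, plus strand: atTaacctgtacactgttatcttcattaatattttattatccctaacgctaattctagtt
Gm28438, chr1:24613060-24613119, minus strand: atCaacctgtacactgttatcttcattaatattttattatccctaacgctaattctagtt
mt-Atp8, chrM:7897-7969, plus strand: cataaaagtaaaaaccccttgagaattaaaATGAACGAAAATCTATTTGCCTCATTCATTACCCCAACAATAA

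**Figure D5:**
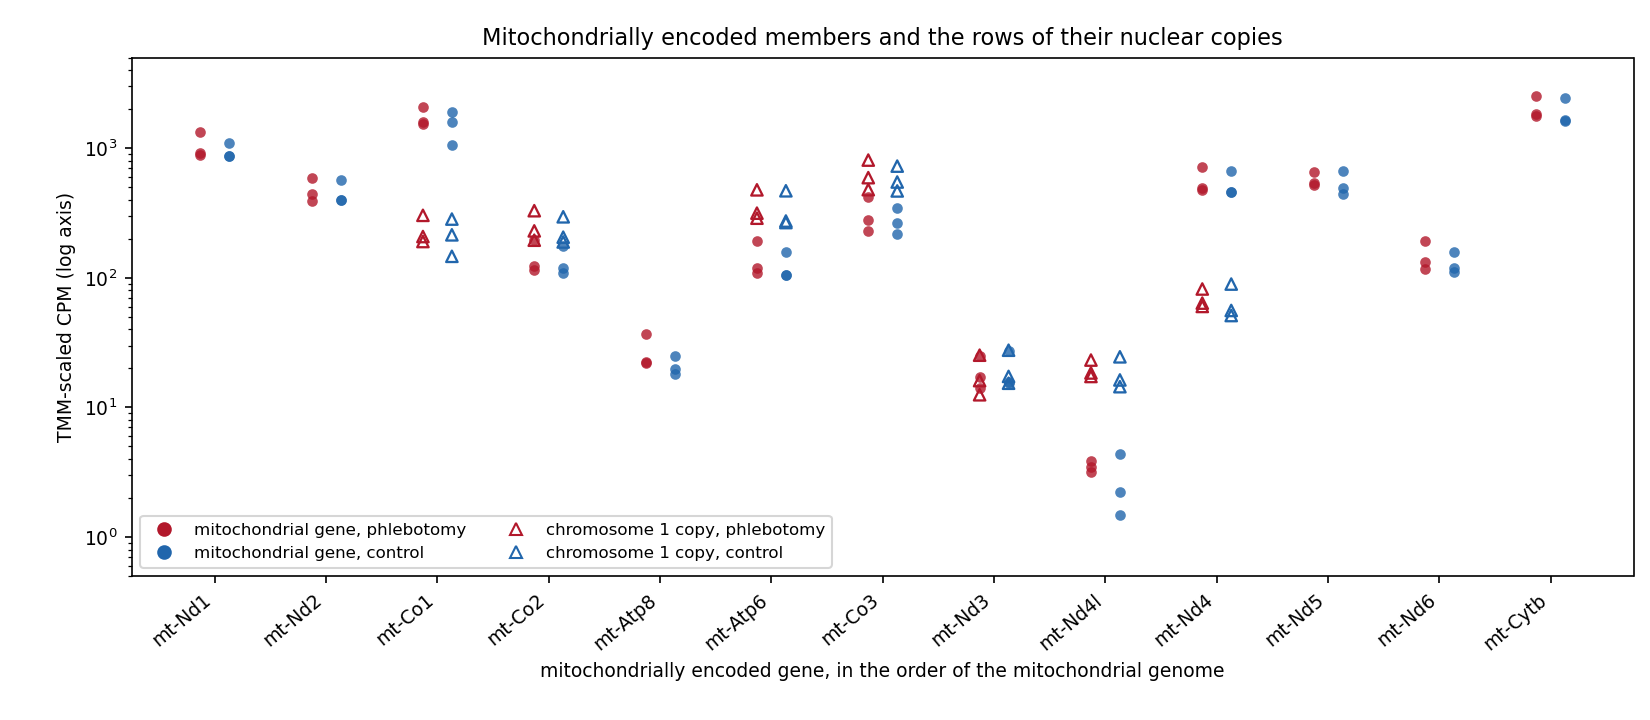
Filled circles are the 13 mitochondrially encoded members and open triangles the rows of their chromosome 1 copies, in TMM-scaled CPM on a log axis, with phlebotomy libraries left of controls and genes in mitochondrial order. For mt-Co2, mt-Atp6, mt-Co3 and mt-Nd4l the copy lies above the gene in every library, and for mt-Co1 and mt-Nd4, of which a part is copied, the copy lies below the gene.

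Nuclear members have processed copies as well. Cox5b-ps, a member by its protein-coding label, is identical to Cox5b at 99.2% of 390 aligned bases, and reads of the pair may have been split. Cox5b had 104, 82.1 and 91.8 CPM in phlebotomy 1, 2 and 4, against 70.2, 78.5 and 80.0 CPM in control 1, 2 and 4, and Cox5b-ps had 26.4, 21.8 and 20.8 CPM in phlebotomy 1, 2 and 4, against 17.3, 18.9 and 22.8 CPM in control 1, 2 and 4. A further 15 rows with member names but a pseudogene or other label summed to 141, 83.9 and 93.4 CPM in phlebotomy 1, 2 and 4, against 78.4, 76.4 and 88.0 CPM in control 1, 2 and 4.

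Member transcripts are short, and the libraries differed in how level followed length. The median transcript was 714 bases for the tested nuclear members and 2379.5 bases for all genes tested. Across 16637 genes, Spearman's rho between transcript length and a library's deviation from the mean level was -0.418, -0.005 and 0.001 in phlebotomy 1, 2 and 4, against 0.220, 0.284 and 0.104 in control 1, 2 and 4. Short transcripts were thus high in phlebotomy 1 and low in the controls. Among the 83 nuclear members, rho between length and log2 fold change was -0.23, and 0.07 without phlebotomy 1.

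By length, the median log2 fold change was 0.51 for 16 nuclear members of up to 500 bases, 0.36 for 24 over 500 and up to 700 bases, 0.35 for 18 over 700 and up to 1000 bases and 0.31 for 25 over 1000 bases. With the trend of level on length and GC content removed in each library, the nuclear median was 0.25, with 74 of 83 above 0 (52.0% of all genes), and 27 were marked as higher at an unadjusted p under 0.05 (8.12% of genes). edgeR called 0 members then, as against 0.0106% of genes higher. The mitochondrial median was -0.23, with 1 of 13 above 0. The cytosolic ribosomal proteins, another class of short abundant transcripts, had a median of 0.37 in the fit without that removal, with 81 of 82 above 0, and the mitochondrial ribosomal proteins had 0.29, with 72 of 77 above 0. What part length plays in the fold changes of the members was not tested.

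Genes around the complexes, taken from lists chosen with earlier results of these data known, did not pass the threshold with all 6 libraries. Without phlebotomy 2, edgeR called Fh1 as higher and Pcx, Polg and Pprc1 as lower. Of 45 tested assembly factors, which build the complexes, 41 lay above 0 with a median of 0.16, and 1, Uqcc2, which acts in complex III assembly, had an unadjusted p under 0.05. Uqcc2 had 40.5, 24.9 and 29.3 CPM in phlebotomy 1, 2 and 4, against 23.0, 22.8 and 24.1 CPM in control 1, 2 and 4. The log2 fold change of Ndufaf8, a complex I assembly factor, was 0.46 (edgeR adjusted p = 0.318).

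Of 18 citric acid cycle genes, 14 lay above 0 with a median of 0.19, and of 0.20 without phlebotomy 1, where the nuclear subunits also had 0.20. The log2 fold change of Fh1, fumarase, was 0.59 (edgeR adjusted p = 0.240). Pcx, pyruvate carboxylase, which replenishes the cycle, had 8.51, 12.0 and 7.96 CPM in phlebotomy 1, 2 and 4, against 16.5, 12.7 and 24.4 CPM in control 1, 2 and 4, and its log2 fold change was -0.91 (edgeR adjusted p = 0.169). Among the 8 subunits and carriers that the name rule leaves out, Atpif1, the inhibitor of ATP synthase, had 0.53 (edgeR adjusted p = 0.252) and Ndufab1, the acyl carrier subunit of complex I, had 0.47 (edgeR adjusted p = 0.282).

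Genes that copy and express mitochondrial DNA were divided, with 14 of 27 above 0 and a median of 0.07. Those with the smallest p were lower after phlebotomy. Polg, the mitochondrial DNA polymerase, had 25.4, 50.8 and 34.5 CPM in phlebotomy 1, 2 and 4, against 60.2, 54.2 and 56.7 CPM in control 1, 2 and 4, a log2 fold change of -0.63 ± 0.22 (SE, edgeR adjusted p = 0.213). Polrmt, the mitochondrial RNA polymerase, had 8.86, 13.2 and 10.997 CPM in phlebotomy 1, 2 and 4, against 19.5, 15.1 and 15.1 CPM in control 1, 2 and 4, a log2 fold change of -0.59 ± 0.22 (SE, edgeR adjusted p = 0.223). Both separated the groups.

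The regulators of mitochondrial biogenesis did not follow the subunits, with 8 of 9 tested genes below 0 and a median of -0.17 (0.01 with the length and GC trend removed, with 5 of 9 above 0). Pprc1, a coactivator of the PGC-1 family, had 36.9, 55.4 and 58.6 CPM in phlebotomy 1, 2 and 4, against 95.5, 78.6 and 81.5 CPM in control 1, 2 and 4. Its groups did not overlap, and phlebotomy 1 was the lowest library, with a log2 fold change of -0.76 ± 0.19 (SE, edgeR adjusted p = 0.148). Esrra, a nuclear receptor of energy metabolism, had -0.22 (edgeR adjusted p = 0.638). The factors whose motifs were searched, Nrf1, Gabpa and Yy1, had -0.03, -0.17 and -0.11, and Ppargc1a, the gene of PGC-1 alpha, stayed at or under 2.96 CPM in every library.

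Markers of the cell types in the fraction differed in direction by type, although none was called with all 6 libraries and the summed levels overlapped between groups for every list in this paragraph, and their part in the members' values was not tested. Osteocyte markers were lower after phlebotomy in 11 of 12 by fold change, and summed to 14174 to 25498 CPM after phlebotomy and 23441 to 49701 CPM in controls. Most of that sum was Dmp1. Of the 12, 9 had an unadjusted edgeR p under 0.05 as lower (9.42% of all genes) and 4 lay lower without overlap (11.2%). Their mean log2 level, relative to each gene's mean, did not overlap. It was -0.60, -0.18 and -0.15 in phlebotomy 1, 2 and 4, against 0.53, 0.26 and 0.15 in control 1, 2 and 4. Of 15 erythroid markers 11 lay above 0, with sums of 21136 to 31141 CPM after phlebotomy and 14006 to 30845 CPM in controls, and of 10 osteoclast markers 8 lay above 0, with sums of 1418 to 3437 CPM after phlebotomy and 1369 to 2635 CPM in controls. Of 12 neutrophil markers 9 lay above 0, with sums of 28796 to 45037 CPM after phlebotomy and 20886 to 50428 CPM in controls, while 9 of 10 B lineage markers lay below 0, with sums of 237 to 325 CPM after phlebotomy and 294 to 381 CPM in controls.

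Tissues rich in these complexes were nearly missing. Of 18 skeletal muscle markers 8 passed the filter, and all 18 summed to 19.9 to 41.5 CPM after phlebotomy and 15.4 to 27.0 CPM in controls. Ttn was the highest, at 7.62 to 23.3 CPM after phlebotomy and 7.06 to 14.6 CPM in controls. Acta1 stayed at or under 4.65 CPM and Ckm, the muscle creatine kinase, at or under 0.78 CPM, and Tnnc2 was at 0 in all 3 controls. Of the 8 tested, 7 lay above 0 and none was called. Mylpf, a fast-muscle myosin light chain, had 4.67, 4.10 and 4.93 CPM in phlebotomy 1, 2 and 4, against 1.97, 3.11 and 1.95 CPM in control 1, 2 and 4 (edgeR adjusted p = 0.191). Myh4, a fast myosin heavy chain, had 1.38, 0.717 and 1.52 CPM in phlebotomy 1, 2 and 4, against 0.493, 0.492 and 0.134 CPM in control 1, 2 and 4 (edgeR adjusted p = 0.202). Both lay higher without overlap, as 31 of 83 nuclear members did. So did Myh1 and Myh7, which did not pass the filter. The part of these muscle genes in the members' values was not tested. Of 6 brown adipocyte markers 3 passed, with sums of 6.97 to 10.2 CPM after phlebotomy and 4.83 to 6.39 CPM in controls, and Ucp1 stayed at or under 0.66 CPM. Control 1, the library with the lowest nuclear share of counts, had the lowest summed erythroid, neutrophil and osteoclast markers and the highest summed osteocyte markers.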

How the data were processed

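RNA was measured in 6 femur libraries, 3 after phlebotomy and 3 from controls. Per the labels' protocols, total RNA of osteocyte-enriched fractions was made into libraries with Nextera XT, which does not mark strand, and read in 126 bp paired-end mode. Among tools, the submitters' processing notes list STAR (2.7.3a, 2.5.2a), limma, edgeR and DESeq2, and as builds mm10 and GRCm38.p3, with no role for any. No source used here names the counting program, and reads of overlapping genes or near-identical copies cannot be assigned. What the authors deposited are raw counts per gene, a filtered copy of them, and a signal table of CPM values scaled by TMM per the file's name. Rows for vectors and transgenes held 0.00278% to 0.0284% of counts and were left out.

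Raw counts were filtered with filterByExpr (minimum count 10), which left 18838 genes, scaled with TMM and fitted with edgeR 4.0.16 (R 4.3.3) by its robust quasi-likelihood test, without covariates, with Benjamini-Hochberg adjustment over all genes. TMM factors ran from 0.906 to 1.072. Standard errors were derived from the F statistic. The fit was tested on simulated data. No list got a test of its own. Depth was 11219243 to 19015588 gene counts, at which 3 counts are 0.158 to 0.267 CPM. No library pair within a group agreed within sampling noise.

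The members and the gene lists were chosen with earlier results of these data known. Named are all mitochondrial members, per complex the nuclear member with the highest CPM per kilobase and the 2 with the smallest p, all isoform groups, and the 2 genes of each other list with the smallest p. Other members are named for their role. The values of 1 member are not reported here, and it stays in all counts and medians. Cox8c and a second identifier of Atp5o were absent from the scaled table. Transcript length is that of the shortest principal transcript in GENCODE M21, and 99.9% of genes tested had one. Nuclear copies were found by shared sequence with mitochondrial genes and kept at 98% identity or more. This left out Gm13340 and Gm13341 on chromosome 2, at 97.6% and 74.3% identity without gaps. Over the 6 libraries they held 83.1 to 153 CPM and 37.9 to 69.0 CPM.

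Alternatives were other scalings and filters, protein-coding genes only, DESeq2 1.42.0, limma-voom and limma-trend (limma 3.58.1, pseudocounts 0.5 and 1 on the deposited values), a replicate block, removal of a trend of level on length and GC content, and each library left out in turn. Column numbers 1, 2 and 4 were not taken to pair libraries. Figures were drawn with matplotlib 3.10.9.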

Additional observations from a re-analysis of the deposited data

Results flagged for a closer look

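A signal appeared in rows outside the gene comparisons. The rows for vector and transgene sequences held 0.0284% of counts in phlebotomy 2, against 0.00278% in phlebotomy 1, 0.00297% in phlebotomy 4 and 0.00337% to 0.00361% in the controls. Phlebotomy 2 is also the phlebotomy library in which the fewest nuclear members, 38 of 83, lay above all controls. Whether the 2 are linked was not tested. Groups of 3 libraries were not tested for outlying values.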

How the results depend on the processing

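The edgeR fit called 0 members, also under other scalings, filters by CPM, protein-coding genes only, limma-voom, limma-trend and trend removal. DESeq2 and edgeR without a low-count filter each called 1 (Uqcr11), and leaving out each library in turn called between 0 and 6, with the 6 reached without phlebotomy 2. At an unadjusted p under 0.05, members marked numbered 33, all higher. They numbered 49 with upper quartile scaling (10.1% of all genes marked higher), and between 6 (without phlebotomy 1) and 44 (without phlebotomy 2) with each library left out, with 7 without control 2 (4.79% of all genes) and 10, 1 of them mitochondrial, without control 1 (4.91%). Counts of nuclear members that separated the groups were 31, and 19 on the deposited values, an alternative added after the data were seen. The nuclear median lay between 0.24 and 0.47 under these alternatives and between 0.20 and 0.47 with each library left out. It was above 0 in every complex under every alternative run. Without a filter the median over all genes was 0.18, so changes there are read relative to it, and the nuclear median was then 0.31.

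The mitochondrial median was -0.23 with the length and GC trend removed. With each library left out it lay between -0.053 (without phlebotomy 1) and 0.32, with -0.0056 without control 2. Trend removal also gave -0.27 for mt-Atp6, -0.16 for mt-Atp8, -0.056 for mt-Co1, -0.30 for mt-Co2, -0.22 for mt-Co3, -0.22 for mt-Cytb, -0.23 for mt-Nd1, -0.33 for mt-Nd2, -0.26 for mt-Nd4, -0.15 for mt-Nd5, -0.31 for mt-Nd6, -0.57 for mt-Nd3 (marked lower, already negative at -0.04) and -0.011 for Atp5g3. Further nuclear members that turned negative were Ndufa1 (-0.038), Uqcrb (-0.096), Uqcrh (-0.076), Atp5j (-0.047), Atp5l (-0.095) and Atp5md (-0.072). Limma-trend gave -0.025 for mt-Nd2 and -0.00068 for mt-Nd4, and mt-Nd3 was 0.054 with upper quartile scaling and 0.036 with protein-coding genes only. The cause was not tested.

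With each library left out, log2 fold changes that changed sign ran from -0.077 to 0.34 for Cox6a2, -0.018 to 0.56 for Cox7a1, -0.48 to 0.092 for Ndufa4l2, -0.079 to 0.39 for mt-Atp6, -0.043 to 0.37 for mt-Co1, -0.15 to 0.32 for mt-Co2, -0.094 to 0.34 for mt-Co3, -0.053 to 0.30 for mt-Cytb, -0.041 to 0.25 for mt-Nd1, -0.095 to 0.23 for mt-Nd2, -0.27 to 0.26 for mt-Nd3, -0.0997 to 0.27 for mt-Nd4, -0.044 to 0.28 for mt-Nd5 and -0.025 to 0.33 for mt-Nd6. Other nuclear members that changed sign were Ndufs3 (-0.022 to 0.23), Uqcrh (-0.035 to 0.23) and Atp5l (-0.020 to 0.29), each negative without phlebotomy 1.

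Whether the column numbers pair the libraries is not given. Deviations from the group mean correlated at -0.13, -0.10 and -0.08 for libraries with the same number. For libraries with different numbers they correlated at -0.035 to 0.11. Deviations within so small a group depend on each other, so these values cannot decide whether the numbers mark pairs. With the replicate block, edgeR called 0 members and marked 17 at an unadjusted p under 0.05 (5.3% of all genes higher), and the medians were 0.35 (nuclear) and 0.13 (mitochondrial). With the block and trend removal the mitochondrial median was -0.23 and 20 members were marked, 19 nuclear as higher and 1 mitochondrial, mt-Nd3, as lower, and values were -0.26 for mt-Atp6, -0.16 for mt-Atp8, -0.019 for mt-Co1, -0.29 for mt-Co2, -0.22 for mt-Co3, -0.20 for mt-Cytb, -0.23 for mt-Nd1, -0.32 for mt-Nd2, -0.25 for mt-Nd4, -0.13 for mt-Nd5, -0.31 for mt-Nd6 and -0.012 for Atp5g3. Of the nuclear members, 74 of 83 lay above 0 in that fit. Depth limits the rare isoforms most: Cox7b2 and Cox8b had too few counts to test.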

Other observations

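The ribosome inside mitochondria, which translates the 13 mitochondrial mRNAs, followed the nuclear subunits in direction. Of 77 tested genes of mitochondrial ribosomal proteins, 72 had a log2 fold change above 0 and 20 an unadjusted p under 0.05 as higher, where 7.01% of all genes did. Mrpl40, a protein of its large subunit, had 37.7, 25.1 and 25.0 CPM in phlebotomy 1, 2 and 4, against 14.8, 18.8 and 18.5 CPM in control 1, 2 and 4, without overlap (log2 fold change 0.75 ± 0.21, SE, edgeR adjusted p = 0.167). Mrpl42 had 53.4, 31.1 and 44.1 CPM in phlebotomy 1, 2 and 4, against 25.3, 27.1 and 27.8 CPM in control 1, 2 and 4, also without overlap (0.68 ± 0.20, SE, edgeR adjusted p = 0.178). The median over the 77 genes was 0.16 without phlebotomy 1 and 0.25 with the length and GC trend removed. The direction was not particular to the mitochondrial ribosome. Of 82 cytosolic ribosomal protein genes, 81 lay above 0 and 30 had an unadjusted edgeR p under 0.05 as higher. Their median was 0.16 without phlebotomy 1 and 0.24 with the trend removed.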
